A study of Mus musculus with 6 samples.

Results

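The genes described here are 33 genes of glycolysis and of the cellular response to low oxygen, listed by name for this description. They were followed in mouse embryonic stem cells after knockdown of Trim71, an RNA-binding TRIM-NHL protein also known as Lin41. Members were the probe sets whose single annotated gene symbol was on the list. This rule found 35 probe sets of 31 genes, among 34760 probe sets and 19937 named genes in all, while Eno1 and Gpi1 were not analysed here. The 31 genes comprise 16 of glucose transport and glycolysis and 15 of the HIF pathway. The knockdown group, 3 arrays with the genotype field Trim71 KD, came from cells that received 3 siRNAs against Trim71 with the reagent Dharmafect1 and were harvested 72 h later. The control group, 3 arrays, is called wild-type in its fields and parental in the series title, while the protocol names a non-targeting siRNA. Whether the controls were transfected is therefore not settled by the labels. The cell line is not named, the siRNAs act on a mixed culture and not on 1 clone, and nothing says whether the replicates were separate cultures, so p-values measure only the spread between these samples. All values are log2 expression from single-colour Affymetrix arrays, 100 ng of RNA each.

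Glycolysis splits glucose into pyruvate and yields ATP without oxygen. Embryonic stem cells are known for running it fast, and for exporting lactate, also where oxygen is present. HIF is a pair of an alpha subunit, encoded by Hif1a or Epas1, with a stable partner. In oxygen, prolyl hydroxylases mark the alpha subunit for destruction. In low oxygen it accumulates and switches on genes for blood vessel growth, glucose use, pH control and survival, among them most glycolytic genes. Much of HIF control therefore acts on the protein, which arrays of RNA do not measure.

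The targeted gene served as a check of the labels. Trim71 read 9.001, 8.95 and 8.98 on the knockdown arrays, against 10.48, 10.50 and 10.51 on the control arrays, so that 34.9% of the control signal was left (limma adjusted p = 2.8e-05; exact two-sided permutation p = 0.1, the smallest that 3 against 3 arrays can give). Of the embryonic stem cell markers all 8 were measured, with a mean log2 level over the markers of 11.88 to 11.93 on the knockdown arrays and 11.78 to 11.81 on the control arrays, and 1 of the 8, Zfp42, was called. Markers of feeder fibroblasts averaged 6.50 to 6.63 on the knockdown arrays and 6.64 to 6.76 on the control arrays. Of these 12 markers, 3 fell, the cytoskeletal genes Acta2, Tagln and Vim, and the other 9 were not called. Among all genes 3.39% were called higher and 2.15% lower. Of 5 endothelial, 6 primitive endoderm and 6 trophectoderm markers, 0 were called in limma. Against 3794 of all 19937 genes at an unadjusted p under 0.05, there were 1, 0 and 2 of these markers. Their means ran from 6.19 to 6.38, 6.28 to 6.38 and 7.17 to 7.20 on the knockdown arrays and from 6.17 to 6.18, 6.34 to 6.42 and 7.17 to 7.28 on the control arrays. The part of any of these markers in the results below was not tested, and in bulk RNA fewer cells of a type and less RNA per cell cannot be told apart. Knockdown array 3 stood apart, with an upper quartile of 8.42 against 8.32 to 8.35 on the other 5 arrays. It was the highest knockdown array for 16 of the 31 members.

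Vegfa and Ddit4 rose and Ndrg1 fell among the HIF targets, and in glycolysis Pdk1 rose and Hk2 fell. The sizes ranged from 1.15-fold higher for Pdk1 and 1.20-fold lower for Hk2 to 1.44-fold higher for Vegfa and 1.40-fold lower for Ndrg1. The calls were not equally stable. In 16 alternative fits Ndrg1 was called in 16, Vegfa in 15, Ddit4 in 9, Hk2 in 8 and Pdk1 in 7. The other 26 measured members were not called, and 11 of the 12 measured glycolytic enzymes were not called. This depended on the fit. With a variance prior that follows brightness and resists outliers, 6 of the 16 transport and glycolysis members were lower, against 4.28% of all genes. A change was called where limma's p, adjusted by the Benjamini-Hochberg method over all 19937 genes, was under 0.05. By this measure 5 of 31 members changed, 3 higher and 2 lower, against 5.53% of all genes (3.39% higher and 2.15% lower). Among the 9969 genes in the brighter part of the arrays 9.24% were called (5.69% higher and 3.55% lower), and among the 28 members in that part 5 were. The groups did not overlap for 18 of the 31 members, against 25.5% of all genes (14.7% higher and 10.8% lower), and for 18 of the 28 bright members, against 38.3% of bright genes. The median log2 fold change was −0.03 over the 31 members and 0.00 over all genes.

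**Figure D1:**
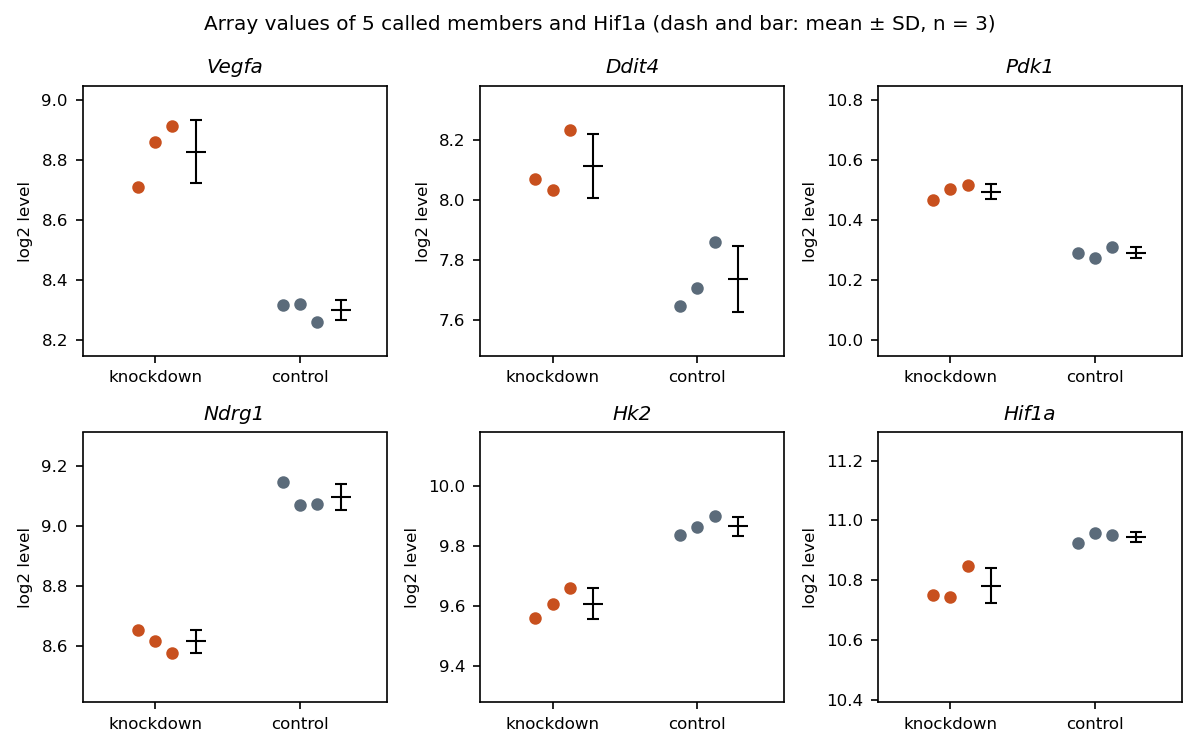
Log2 level on each array (points) for the 5 called members and for Hif1a, which was not called, with knockdown left of control in each panel; the dash and bar to the right of each group are the mean and SD over 3 arrays, and every panel spans the same range of the log2 axis. The knockdown and control points do not overlap in any of the 6 panels, and the gap is widest for Ndrg1 (0.42) and Vegfa (0.39). As 5 of the panels were picked by their call, this is no separate result. The groups did not overlap for 25.5% of all genes and 38.3% of bright genes.

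The letters that HIF reads stand in short promoter windows of most of these genes, called or not. HIF recognises the hypoxia response element, whose core is ACGTG or, with a different base at one end, GCGTG. With a C before it, the first makes the site of MYC and related factors, CACGTG, so that matches to both factors overlap. Promoter windows of 300 bases, 250 before and 50 after an annotated start, were taken from RefSeq (build GRCm38.p6) for 30 of the 33 genes. Slc2a3, Epas1 and Ndrg1 had no entry. Either core, read on both strands, was found for 28 of the 30 genes (93.3%), against 46.7% of all 27025 genes with a window, and ACGTG for 22 (73.3%), against 21.8%. Per window, ACGTG stood in 54.8% of the 42 windows of the members and in 19.6% of all 32851 windows. The windows of the members also held more CpG pairs, a median of 23 against 7, and ACGTG itself contains one. Among all windows with at least 23 CpG pairs 29.1% held ACGTG, and among the members' windows of that kind 72.7% did; for either core the shares were 74.7% of all such windows and 90.9% of the members'. ACGTG was found for 3 of the 4 called members with a window and for 19 of the 24 measured members that were not called. A match is a description of letters, not a binding site. The members were listed as glycolysis and hypoxia response genes, HIF targets among them. Their shares are therefore a description and not independent support for a role of HIF. For Vegfa the window at the most upstream start held neither core, and a second window, at a start farther downstream, held 2 core matches, 1 of them ACGTG. The windows reach only 250 bases before a start, so a window without a match says nothing of sites farther away.

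The stretches below, 5′ to 3′ on the strand of the gene, show every core match that lies before the most upstream start in the windows of 3 called genes (Hk2, Ddit4, Pdk1) beside 3 genes of the same pathways that were not called (Pgk1, Ldha, Hif1a). Capitals mark the core; CACGT and CACGC are the same cores read on the other strand, and CACGTG is a match on both.
Hk2, chr6:82774477-82774531, minus strand: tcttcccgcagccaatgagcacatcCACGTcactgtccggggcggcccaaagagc
Hk2, chr6:82774651-82774704, minus strand: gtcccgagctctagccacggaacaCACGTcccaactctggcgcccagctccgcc
Ddit4, chr10:59951856-59951910, minus strand: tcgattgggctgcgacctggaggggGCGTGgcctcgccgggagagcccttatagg
Ddit4, chr10:59951928-59951982, minus strand: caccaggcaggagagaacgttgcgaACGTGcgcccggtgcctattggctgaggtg
Pdk1, chr2:71873121-71873175, plus strand: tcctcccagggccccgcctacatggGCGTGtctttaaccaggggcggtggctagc
Pgk1, chrX:106186925-106186998, plus strand: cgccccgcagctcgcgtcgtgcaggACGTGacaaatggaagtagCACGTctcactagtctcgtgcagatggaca
Ldha, chr7:46845634-46845689, plus strand: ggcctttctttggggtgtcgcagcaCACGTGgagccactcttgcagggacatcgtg
Ldha, chr7:46845731-46845799, plus strand: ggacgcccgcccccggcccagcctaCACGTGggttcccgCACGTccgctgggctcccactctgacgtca
Hif1a, chr12:73907707-73907762, plus strand: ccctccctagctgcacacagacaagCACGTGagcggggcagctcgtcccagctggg
Hif1a, chr12:73907772-73907826, plus strand: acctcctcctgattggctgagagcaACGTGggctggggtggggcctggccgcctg

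Glucose enters these cells through facilitative transporters. Slc2a1, the widespread glucose transporter GLUT1, read 12.41, 12.40 and 12.41 on the knockdown arrays and 12.38, 12.40 and 12.42 on the control arrays. The groups overlap, and the knockdown level was 100.6% of control with a 95% interval of 93.7 to 108%. Slc2a3, the high-affinity transporter GLUT3, read 12.56, 12.55 and 12.63 on the knockdown arrays, against 12.53, 12.52 and 12.49 on the control arrays. The groups do not overlap, but the log2 difference of 0.07 did not pass (limma adjusted p = 0.522). Slc16a3, the lactate exporter MCT4, was at 10.04, 9.97 and 9.94 on the knockdown arrays, against 10.12, 10.13 and 10.23 on the control arrays. The log2 difference of −0.18 ± 0.055 (SE) did not pass over all genes (limma adjusted p = 0.128), although every knockdown array was below every control array.

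Hexokinases trap glucose by phosphorylation, and Hk2 is the inducible form. It fell, with 9.56, 9.61 and 9.66 on the knockdown arrays against 9.84, 9.86 and 9.90 on the control arrays. The groups are separated by 0.18, and the log2 fold change was −0.26 ± 0.050 (SE; limma adjusted p = 0.0281), 83.6% of control with an interval of 77.2 to 90.6%. The call was lost in 5 of the 6 fits that leave out 1 array and was kept without knockdown array 3; the adjusted p was highest, 0.117, without control array 2. Hk1, the constitutive hexokinase of brain and many other tissues, had 2 probe sets that went different ways. One is numbered among genes of chromosome 10, where Hk1 lies, and is annotated with 8 transcripts or cDNAs. It read 8.16, 8.32 and 8.44 on the knockdown arrays and 8.10, 8.12 and 7.99 on the control arrays. The groups do not overlap there, with a log2 difference of 0.24 ± 0.085 (SE; limma adjusted p = 0.283 over all probe sets, and 0.146 over genes with this probe set taken for Hk1). The other, brighter one is numbered among genes of chromosome 14 and is annotated with a single cDNA. A further 15 probe sets name Hk1 together with other genes such as Rpl17, a ribosomal protein gene. It had a log2 difference of −0.03 (limma adjusted p = 0.875). The rule of taking the brightest probe set per gene picks this second one, so whether the Hk1 value in the counts over 31 genes comes from Hk1 was not tested.

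None of the enzymes from here to lactate passed the test. Pgm2, a phosphopentomutase that links pentose sugars to the pathway, read 9.34, 9.36 and 9.54 on the knockdown arrays, against 9.29, 9.30 and 9.33 on the control arrays. The knockdown arrays lie above the control arrays by a gap of 0.0068, and the log2 difference of 0.11 did not pass (limma adjusted p = 0.436). Among the phosphofructokinases, which catalyse the committed step, the liver form Pfkl read 10.55, 10.51 and 10.46 on the knockdown arrays, against 10.62, 10.62 and 10.64 on the control arrays. The groups do not overlap, and the difference of −0.12 did not pass (limma adjusted p = 0.245). The platelet form Pfkp, at −0.05, overlapped between groups. The aldolases split the 6-carbon sugar. Aldoa, the muscle and ubiquitous form, differed least of all members, with a knockdown level of 100% of control and an interval of 93.3 to 107%, and the brain form Aldoc was at −0.03. Tpi1, triose phosphate isomerase, read 11.70, 11.64 and 11.68 on the knockdown arrays and 11.82, 11.78 and 11.77 on the control arrays. Its groups do not overlap, and the difference was −0.11 ± 0.046 (SE; limma adjusted p = 0.234).

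In the steps that yield ATP, Pgk1, phosphoglycerate kinase, read 12.04, 12.05 and 12.02 on the knockdown arrays, against 12.20, 12.14 and 12.15 on the control arrays. The knockdown level was 91.5% of control (interval 85.0 to 98.3%; limma adjusted p = 0.168), with the groups apart by 0.10. Pgam1, phosphoglycerate mutase, was at −0.03 (limma adjusted p = 0.826), from a probe set numbered among genes of chromosome 7 and not of chromosome 19, where Pgam1 lies. Pkm, pyruvate kinase, had a difference of −0.02 with overlapping groups on the probe set numbered with its own chromosome 9. Its second probe set, numbered among genes of chromosome 5, read 11.43, 11.38 and 11.42 on the knockdown arrays against 11.50, 11.52 and 11.53 on the control arrays, without overlap and not called (limma adjusted p = 0.375 over all probe sets). Ldha, which turns pyruvate into lactate, read 12.42, 12.42 and 12.44 on the knockdown arrays and 12.47, 12.51 and 12.51 on the control arrays. That is 94.99% of control with an interval of 88.4 to 102% (limma adjusted p = 0.44).

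Of the 12 enzymes 1 was called, Hk2, or 8.33%, against 5.53% of all genes and 9.24% of bright genes. An unadjusted p under 0.05 was seen for 4 of 12, against 3794 of all 19937 genes. The log2 difference was below 0 for 10 of the 12 and for 11 of the 16 transport and glycolysis members, against 9613 of 19937 genes. The medians were −0.04 over the 12 enzymes and −0.03 over the 16, with 0.00 over all genes. The count of lower members moved with the processing in both directions. It was 0 of 16 without variance moderation, over all probe sets, with the replicate number as a block and in 5 of the 6 fits with 1 array left out. Those fits also called fewer of all genes lower than the 428 of the fit reported. The counts were 142 without moderation, 134 over all probe sets, 108 with the block and 101 to 205 in the 5 left-out fits. With so few genes called lower, the 0 of 16 does not set the members apart from other genes. With a variance prior that follows brightness and resists outliers, 6 of the 16 were lower, Hk2, Slc16a3, Pfkl, Tpi1, Pgk1 and Ldha, where 4.28% of all genes were (10.4% changed in either direction and 6.08% rose), and adjusted p-values for the 5 added genes ran from 0.0021 for Pgk1 to 0.0379 for Pfkl. The log2 differences are the same in both fits. In a fit of the brighter genes alone 3 of the 16 were lower, Hk2, Slc16a3 and Pgk1, against 7.68% of those genes (19% in either direction, 11.3% higher).

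Pdk1, a kinase that switches off pyruvate dehydrogenase and so keeps pyruvate carbon out of the citrate cycle, was the 1 member of the glycolysis group that rose. It read 10.47, 10.50 and 10.52 on the knockdown arrays, against 10.29, 10.27 and 10.31 on the control arrays. All 3 knockdown arrays lie above all 3 control arrays, with a log2 fold change of 0.20 ± 0.045 (SE; limma adjusted p = 0.0444), or 115% of control with an interval of 107 to 124%. The call is close to the threshold. It was lost in each of the 6 fits with 1 array left out, with adjusted p-values from 0.0564 to 0.176, and with arrays centred on their medians (0.0609).

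**Figure D2:**
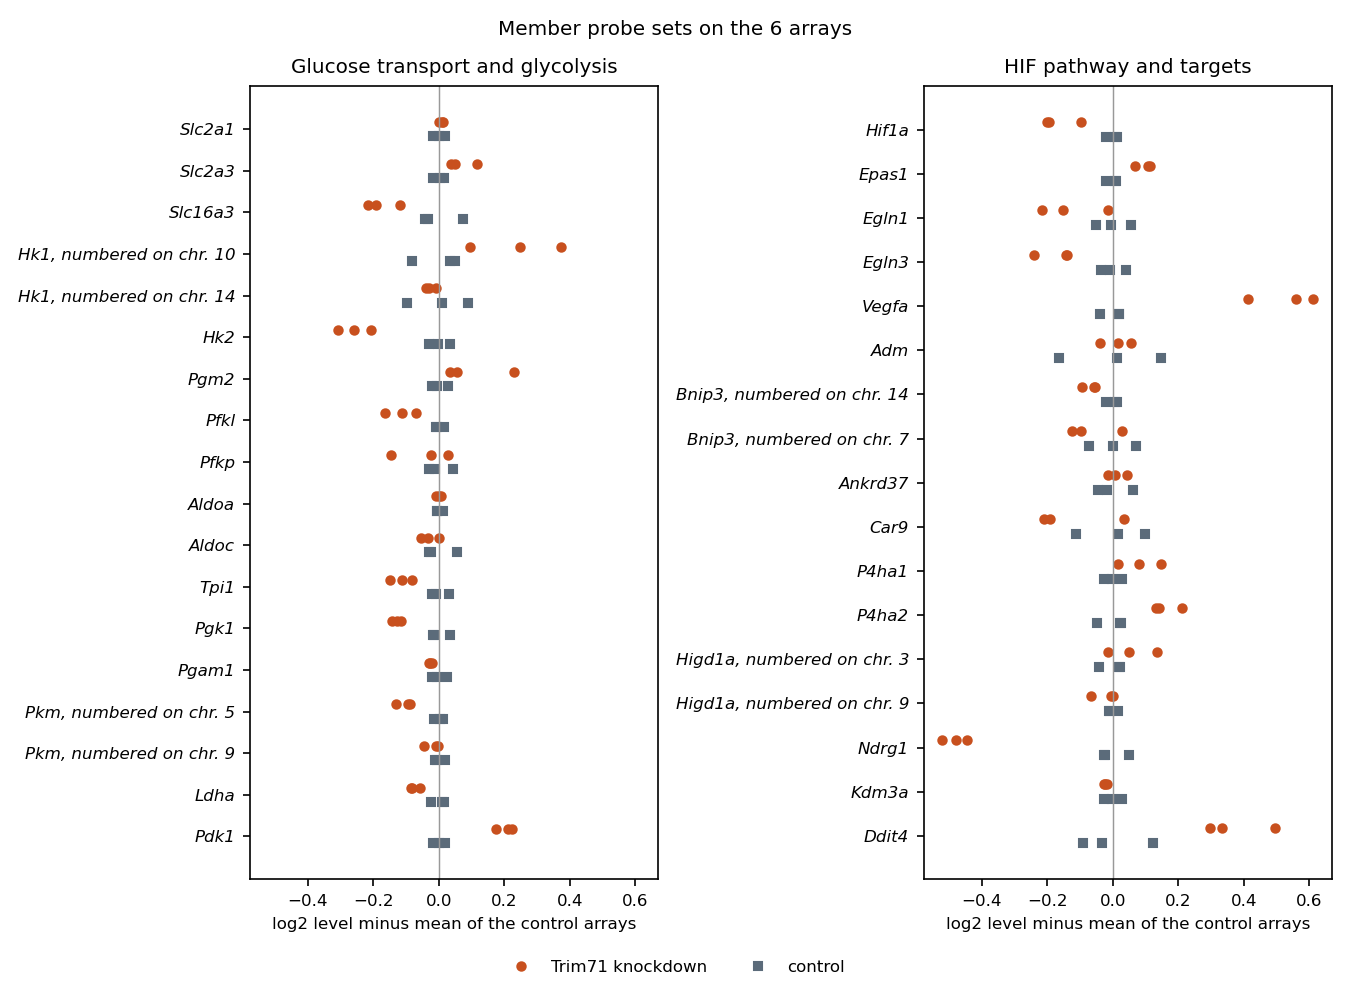
Log2 level of every member probe set on each array, minus the mean of the 3 control arrays, with knockdown (circles) above control (squares) in each row; genes with 2 probe sets have 2 rows, named by the chromosome whose genes are nearest in probe set numbering. Most glycolytic rows lie within 0.2 of the control mean. Hk2 lies to the left, and Pdk1 and the Hk1 row of chromosome 10 lie to the right. Vegfa, Ddit4 and Ndrg1 lie farthest out.

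In the oxygen-sensing arm, neither alpha subunit was called. Hif1a read 10.75, 10.75 and 10.85 on the knockdown arrays, against 10.92, 10.96 and 10.95 on the control arrays. The groups do not overlap, and the knockdown level was 89.3% of control with an interval of 82.4 to 96.8% (log2 difference −0.16 ± 0.050 SE, limma adjusted p = 0.121). It passed in 4 of 16 alternative fits, among them the one without knockdown array 3 (0.0497) and the brightness-dependent prior (0.0057). Epas1, which encodes HIF-2 alpha, read 9.63, 9.59 and 9.64 on the knockdown arrays and 9.53, 9.53 and 9.50 on the control arrays. Its difference ran the other way, at 0.10 ± 0.045 (SE), and did not pass (limma adjusted p = 0.302).

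The prolyl hydroxylases that inactivate HIF in oxygen are themselves HIF targets. Egln3 (PHD3) read 9.26, 9.16 and 9.26 on the knockdown arrays, against 9.39, 9.37 and 9.44 on the control arrays. There was no overlap, with a log2 difference of −0.17 ± 0.052 (SE; limma adjusted p = 0.112), which passed with array weights (0.0335, in a fit that called 10.9% of all genes, 5.59% higher and 5.31% lower) and with the brightness-dependent prior (0.0238). Egln1 (PHD2), the main sensor, read 7.998, 7.93 and 8.13 on the knockdown arrays, against 8.20, 8.10 and 8.14 on the control arrays. The groups overlap through knockdown array 3, and the difference of −0.13 did not pass (limma adjusted p = 0.356).

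Of the 11 HIF targets 2 rose and 1 fell, where 3.39% of all genes were higher and 2.15% lower. Among bright genes the shares were 5.69% and 3.55%. Vegfa, the growth factor that draws in blood vessels, read 8.71, 8.86 and 8.91 on the knockdown arrays, against 8.32, 8.32 and 8.26 on the control arrays. The averages were 8.83 ± 0.10 in knockdown cells and 8.30 ± 0.033 in control cells (SD, n = 3 each), with a log2 fold change of 0.53 ± 0.063 (SE; limma adjusted p = 0.00589). The level was 144% of control with an interval of 130 to 160%. Vegfa passed with any 1 array left out (adjusted p up to 0.0342) and in 15 of 16 alternatives; without variance moderation it was at 0.052. Ddit4, also called REDD1, a stress-induced inhibitor of mTOR complex 1, read 8.07, 8.03 and 8.23 on the knockdown arrays, against 7.65, 7.70 and 7.86 on the control arrays. The groups are separated by 0.17, and the log2 fold change was 0.38 ± 0.077 (SE; limma adjusted p = 0.0358). Its control arrays spread more than those of Vegfa, and the call was kept in 1 of the 6 fits with an array left out, that without control array 3, and reached an adjusted p of 0.143 without control array 1.

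Ndrg1, a stress- and differentiation-induced gene known as a suppressor of metastasis and a marker of hypoxia, went the other way. It read 8.65, 8.62 and 8.57 on the knockdown arrays, against 9.15, 9.07 and 9.07 on the control arrays. The averages were 8.61 ± 0.038 in knockdown cells and 9.095 ± 0.044 in control cells (SD, n = 3 each), and the log2 fold change was −0.48 ± 0.049 (SE; limma adjusted p = 0.00352). That is 71.6% of control with an interval of 66.1 to 77.6%, and the call held in all 16 alternative fits. Ranked by the size of limma's statistic, Ndrg1 was number 82 and Vegfa number 135 of 19937 genes.

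The other 8 HIF targets did not pass. Car9, the membrane carbonic anhydrase that regulates pH, read 4.66, 4.64 and 4.88 on the knockdown arrays and 4.74, 4.95 and 4.86 on the control arrays. Adm, the vasoactive peptide adrenomedullin, was at 5.69, 5.79 and 5.75 on the knockdown arrays and 5.75, 5.57 and 5.88 on the control arrays. Both overlap between groups, with log2 differences of −0.12 and 0.01 (limma adjusted p = 0.509 and 0.966). They and Ankrd37, a nuclear ankyrin repeat protein at 0.01, were the 3 members below the median brightness of all genes. Bnip3, a mitophagy receptor, was at −0.07 on the probe set numbered with chromosome 14 and at −0.06 on the one numbered with its own chromosome 7. Higd1a, a mitochondrial survival protein, was at 0.06 on a probe set numbered with chromosome 3 and at −0.02 on the one numbered with its own chromosome 9. Kdm3a, a histone H3 lysine 9 demethylase, was at −0.02 (interval 91.6 to 106% of control).

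P4ha1 and P4ha2 encode the catalytic subunits of collagen prolyl 4-hydroxylase. P4ha2 read 6.82, 6.81 and 6.89 on the knockdown arrays, against 6.70, 6.63 and 6.70 on the control arrays, without overlap. Its difference of 0.16 ± 0.050 (SE) did not pass over all genes (limma adjusted p = 0.121) and passed when the brighter part of the genes was tested alone (0.032). P4ha1, at 0.08, overlapped. Over the 15 HIF pathway members the median log2 difference was 0.01, with 8 above and 7 below 0. Of the 15, 2 were called higher and 1 lower, against 3.39% and 2.15% of all genes. The called targets Vegfa and Ddit4 moved opposite to Ndrg1.

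**Figure D3:**
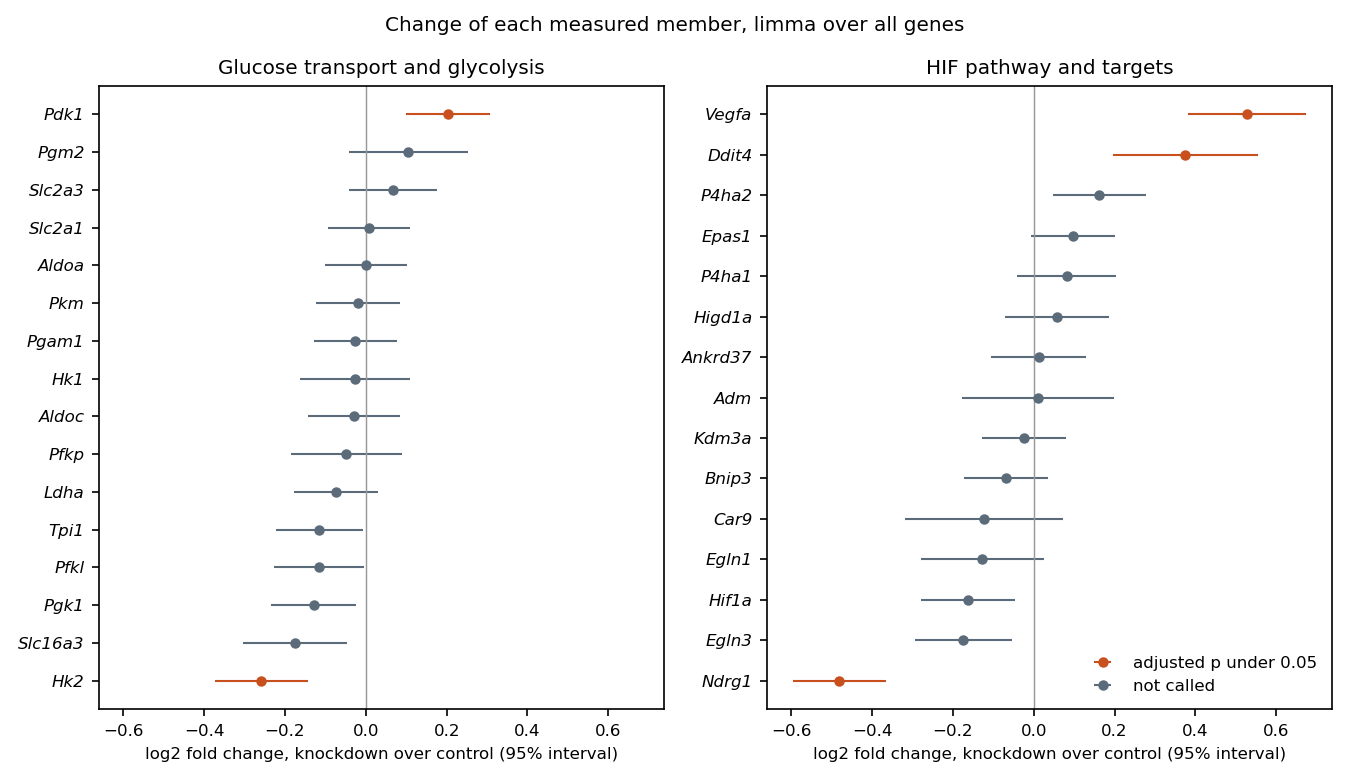
Log2 fold change of each of the 31 measured members, knockdown over control, with its 95% interval from limma (horizontal bars, not adjusted for the number of genes), ordered from highest to lowest in each panel; the 5 called members are in orange. Pdk1 and Hk2 are the ends of the glycolysis panel and Vegfa and Ndrg1 those of the HIF panel. Hk1 is shown by its brightest probe set, numbered on chromosome 14. Its probe set numbered on chromosome 10, at 0.24 and not shown, lies above Pdk1 at 0.20. The intervals extend 0.12 to each side at the median.

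Other genes of the same pathways, from lists grouped by role, were read beside the members. The lists were chosen with earlier results of these data known, so their counts are a description and not independent support. Of 21 measured other glycolysis genes 2 fell and 0 rose, or 9.52% called against 5.53% of all genes and 9.24% of bright genes. An unadjusted p under 0.05 was found for 5 of the 21, against 3794 of all 19937 genes. Ldhb, the heart-type lactate dehydrogenase, read 10.32, 10.19 and 10.39 on the knockdown arrays, against 10.70, 10.67 and 10.72 on the control arrays (log2 fold change −0.40 ± 0.062 SE, limma adjusted p = 0.0141). Slc16a1, the monocarboxylate transporter MCT1, read 9.94, 9.83 and 9.996 on the knockdown arrays, against 10.20, 10.25 and 10.26 on the control arrays (log2 fold change −0.31 ± 0.058 SE, limma adjusted p = 0.0244). Neither group pair overlaps. The 2 genes next in the list, Pfkm, the muscle phosphofructokinase, at 0.24 (limma adjusted p = 0.0508), and Pgm1, phosphoglucomutase, at −0.18 (0.128), were not called. With 1 array left out Ldhb was called in 3 and Slc16a1 in 1 of 6 fits, with adjusted p-values of up to 0.0726 without control array 1 and 0.105 without control array 2. Gapdh was not among those measured, since all 11 probe sets that name it name other genes too.

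At the entry of pyruvate into the citrate cycle 1 of 18 measured genes changed, or 5.56% called. This is near the 5.53% of all genes and below the 9.24% of bright genes. Pdk2, a pyruvate dehydrogenase kinase like Pdk1, rose, with 7.80, 7.76 and 7.97 on the knockdown arrays against 7.36, 7.36 and 7.34 on the control arrays (log2 fold change 0.49 ± 0.063 SE, limma adjusted p = 0.00748), and it was called with any 1 array left out. Pdk4, an isozyme of the same family, was at −0.29 (limma adjusted p = 0.0573), and Pdk3, named here as the remaining isozyme, at −0.07 (0.498). Sdhb, a subunit of succinate dehydrogenase, was at 0.10 and not called. Of 6 pentose phosphate genes 0 were called in limma, against 5.53% of all genes. At an unadjusted p under 0.05 stood 1 of the 6, against 3794 of all 19937 genes. It was Rpe at 0.20 (limma adjusted p = 0.0711), and Tkt stood next at −0.10. Isozymes of one step thus had log2 fold changes of different size or sign, as for Hk1 and Hk2, Ldha and Ldhb, and the pyruvate dehydrogenase kinases; the difference between isozymes was not tested.

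**Figure D4:**
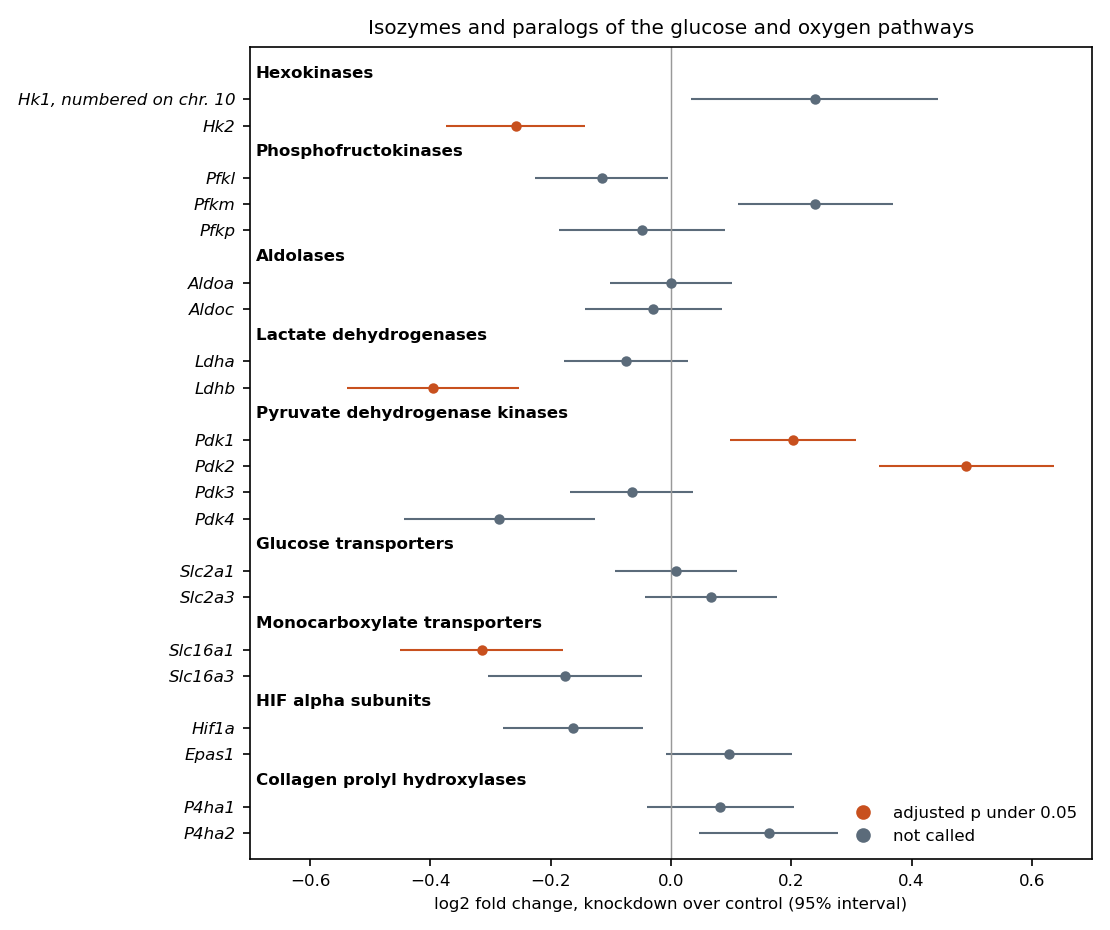
Log2 fold change, knockdown over control, with the 95% interval from limma for isozymes and paralogs grouped by step; Hk1 is shown by the probe set numbered on chromosome 10, and called genes are in orange. Pdk1 at 0.20 and Pdk2 at 0.49 lie right of 0, Hk2 at −0.26, Ldhb at −0.40 and Slc16a1 at −0.31 lie left of it, and the intervals of both aldolases and both glucose transporters span 0.

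Of 33 measured other genes of the HIF pathway 4 rose and 2 fell, or 18.2% called, against 5.53% of all genes and 9.24% of bright genes. The groups did not overlap for 60.6% of them, 20 genes, against 25.5% of all genes and 38.3% of bright genes. Mxi1, a MYC antagonist induced by HIF, rose by 0.43 ± 0.060 (SE; limma adjusted p = 0.0102), with 8.18, 8.18 and 8.32 on the knockdown arrays against 7.76, 7.77 and 7.87 on the control arrays. Igfbp3, an IGF-binding protein, rose by 0.45, the histone demethylase gene Kdm4b by 0.31, and the transferrin receptor gene Tfrc by 0.24. Gbe1, the glycogen branching enzyme, had a log2 fold change of −0.31 and Plod1, a lysyl hydroxylase of collagen, one of −0.31. In fits with 1 array left out Mxi1 was called in 4 of 6, Gbe1 in 3, Kdm4b in 2, Igfbp3 and Plod1 in 1 and Tfrc in 0. Car12, a carbonic anhydrase like Car9, was at 0.61 ± 0.15 (SE) and Bhlhe41, a repressor of the clock and hypoxia programmes, at 0.26, and both missed the threshold (limma adjusted p = 0.0569 and 0.0597). The median over these 33 genes was 0.02.

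Ddit4 and Vegfa also respond to the integrated stress response, a programme of amino acid and folding stress run by ATF4. Of 14 genes of that programme 1 rose, or 7.14% called, against 5.53% of all genes and 9.24% of bright genes. It was Aldh18a1 of proline synthesis, at 0.29 ± 0.061 (SE, limma adjusted p = 0.0372). Aldh18a1 was called in 0 of the 6 fits with an array left out. Atf3 at 0.23 and Chac1 at −0.17 stood next and were not called (limma adjusted p = 0.318 and 0.332). The list median was 0.01. The groups did not overlap for 1 of the 14, or 7.14%, against 25.5% of all genes. Whether this programme had a part in the changes of Ddit4 and Vegfa was not tested.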

How the data were processed

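Per the submitters' processing notes the authors used RMA and the affy package (versions not given in the sources used); the deposited values are log2 expression per probe set and array, background-corrected, quantile normalized and summarized by that method. Such scaling hides any shift that most genes have in common. The values carry no detection call. The number of arrays limits the precision.

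Gene names came from the platform annotation at GEO. Of 34760, 21640 had 1 symbol, 1321 had several and 11799 were unnamed here; 21553 matched RefSeq by Entrez identifier. Each of the 954 genes with several probe sets is represented by its brightest one on average. Group was the only term of a limma 3.58.1 fit (R 4.3.3, lmFit and eBayes). P-values were adjusted over 19937 genes, and second probe sets of a member over all probe sets. The fit was tested on simulated data. Plots used matplotlib 3.10.9 under Python 3.11.15, with tables read by pandas 2.3.3.

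All measured members are named; in each other pathway list every called gene and the 2 uncalled genes with the largest statistic are. Members and lists were chosen with earlier results of these data known. Same-numbered knockdown and control arrays did not deviate together, so no pairing was used. Deviations of differently numbered arrays correlated at −0.23 to 0.28, and a link between such arrays was not tested. Alternatives were the replicate block, each array left out, other priors, array weights, other scalings, probe set rules, filters and thresholds, and, added after seeing the data, the probe set numbered on the gene's own chromosome.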

Additional observations from a re-analysis of the deposited data

How the results depend on the processing

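Trim71 kept its direction and call in every alternative run, between −1.55 and −1.51 on the log2 scale, and Ndrg1 was called in all 16 alternative fits. With the replicate number as a block 171 genes were higher and 108 lower, and 0 glycolysis members were called in either direction, while hypoxia members kept 2 higher and 1 lower; deviations of same-numbered arrays correlated at −0.02, −0.15 and −0.24, and the cause of the lost calls was not tested. Leaving out 1 array gave 148 to 603 genes higher and 101 to 699 lower, 0 glycolysis members higher, 0 to 1 lower, 1 to 2 hypoxia members higher and 1 to 2 lower. Genes higher and lower numbered 1213 and 854 with the trended and robust prior, 271 and 142 without moderation, 1114 and 1058 with array weights, 1124 and 766 in the brighter part of the genes, 266 and 134 over all probe sets, 779 and 763 when quantile normalization was repeated, 527 and 616 with median-centred arrays, 152 and 94 at an adjusted p under 0.01, and 62 and 43 at 1.5-fold or more. The higher share of calls was 61.2% in the fit reported and 50.5% with quantile normalization repeated, 46.1% with median-centred arrays, 51.3% with array weights and 46.3% without knockdown array 3; these 2 scalings moved the median of all genes to −0.015 and −0.025. Glycolysis members higher became 0 with centred arrays, over all probe sets, at an adjusted p under 0.01 and at 1.5-fold; lower members became 6 with the trended prior, 3 in the brighter part, and 0 without moderation, over all probe sets, at 0.01 and at 1.5-fold. Hypoxia members higher became 3 in the brighter part, where 11.3% of genes were higher. They became 1 over all probe sets and at 0.01, and 0 without moderation and at 1.5-fold. Lower hypoxia members became 3 with the trended prior, array weights and the brighter part, and 0 at 1.5-fold. These 3 fits called 4.28%, 5.31% and 7.68% of their genes lower. Sign changes were seen in 7 members, none of them called. Median-centred arrays gave Slc2a1 −0.022, Aldoa −0.030, Adm −0.019 and Ankrd37 −0.018, and repeating quantile normalization gave Aldoa −0.0045, Adm −0.018 and Ankrd37 −0.013. With 1 array left out Slc2a1 ran from −0.00068 to 0.018, Hk1 from −0.076 to 0.018, Pfkp from −0.086 to 0.0015, Aldoa from −0.0034 to 0.0064, Adm from −0.070 to 0.085 and Ankrd37 from −0.011 to 0.044. Hk1 was at 0.11 as the mean of its probe sets and at 0.24 with the probe set of its own chromosome, and Higd1a at −0.024 with that choice, which was added after seeing the data.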
